A study of Mus musculus with 6 samples.

Results

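H60c is one of the mouse genes for ligands of NKG2D, and its expression in corneal epithelium is described here across 6 RNA sequencing libraries. The member is 1 gene of the 25006 in the deposited count table, the row whose Ensembl identifier, ENSMUSG00000091618, carries the symbol H60c. The corneal epithelium is the layered tissue that covers the front of the eye. Wild type mice gave 3 libraries, and mice labelled EphA2 null (EphA2-/- in the design text), which by that label lack the receptor tyrosine kinase EphA2, gave the other 3. The latter are called null-labelled 1, 2 and 3. No treatment, age, strain or sex is given in the labels, nor how the null allele was made. The sample titles carry a number and a letter, and the meaning of neither is stated. The number is s7976 for wild type 1 and 2, s7975 for null-labelled 1, s7999 for wild type 3, and s7998 for null-labelled 2 and 3. The letter is N for wild type 1 and null-labelled 1 and 3, R for wild type 2 and 3, and B for null-labelled 2. The first 3 libraries are called those with lower title numbers and the last 3 those with higher title numbers. The study's title concerns cilium formation and autophagy, and this gene was not among its named subjects. H60c was chosen by its own measured level in these libraries, both the contrast of title numbers and that of genotypes, so its levels and differences are descriptions and no p-value is given for it.

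NKG2D is an activating receptor on natural killer cells and on subsets of T cells, including gamma delta T cells of epithelia. Its ligands are surface proteins related to MHC class I molecules, and in the mouse they comprise the H60, RAE-1 (Raet1) and MULT1 (Ulbp1) families. They are best known as molecules that appear on stressed, infected or transformed cells. H60c is a member held in the membrane by a glycosylphosphatidylinositol (GPI) anchor, and is known mainly from keratinocytes of the skin.

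H60c lies on the minus strand of chromosome 10, from 3256208 to 3267771 in GRCm38 (GENCODE M21). The annotation gives it 3 transcripts with 2817 bases of exon in all. Of these, 2 are coding, with 6 exons each. The longer in exon sequence has 591 coding bases with the start codon in exon 2, and the other has 678 coding bases with the start codon in exon 1. The coding part of both ends in exon 5. The last exon of the first (3256208 to 3258200) is 1993 bases of 3′ untranslated sequence, so most of the exon sequence in which reads could be counted is not coding. No other annotated gene overlaps H60c. The counts are per gene and do not separate the transcripts. The 250 bases before the H60c start, chr10:3267772-3268021 on the minus strand (RefSeq, GRCm38.p6), are shown as the proximal upstream sequence of the gene described. Capitals mark the matches found to a KLF core (CCACCC) and to an E-box (CACCTG), searched on both strands.
H60c: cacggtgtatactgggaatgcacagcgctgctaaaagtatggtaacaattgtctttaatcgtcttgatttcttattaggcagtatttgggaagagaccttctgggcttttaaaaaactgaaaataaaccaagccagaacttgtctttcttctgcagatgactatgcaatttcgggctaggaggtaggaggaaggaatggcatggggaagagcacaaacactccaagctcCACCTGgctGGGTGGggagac
The E-box match begins 21 bases and the KLF match 12 bases before the start, the latter on the reverse strand, and they do not overlap. Of 32851 RefSeq promoter windows cut to the same length, 28.1% held the KLF core and 17.2% this E-box. No match to AP-1 (TGANTCA, in 6.75% of windows), to a STAT element (TTCNNNGAA, in 7.02%) or to a TATA box (TATAAA, in 12.4%) was found in this window. The windows of Ulbp1 also held the KLF core and the E-box, and those of Raet1e and Raet1d held the KLF core. RefSeq's gene span for H60c begins 320 bases further upstream than the GENCODE start, so the printed bases lie inside that span and may be transcribed.

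Before the levels are read, the libraries need a description. Total counts ran from 15308013 to 27586942 per library. The libraries with higher title numbers differed widely from those with lower ones, and this is why the numbers were taken up as a comparison. Of 12847 tested genes, 44.7% were called between the 2 ranges by edgeR's quasi-likelihood test with genotype as a term (Benjamini-Hochberg adjusted p under 0.05). They were 3154 genes higher (24.6%) and 2586 lower (20.1%) in the higher numbers. This count rested on single libraries: it was 5740 with all 6, 1103 without null-labelled 1, 3549 without wild type 2 and 3702 without wild type 3. Upper quartile scaling shifted the median of all genes from -0.01 to -0.13 on the log2 scale and the share of calls that were higher from 54.9% to 39.5%. Between the genotypes 1 gene of 12847 was called, or 0.00778%. It was Padi1, which encodes a peptidylarginine deiminase, and was higher in the null-labelled libraries (adjusted p = 0.00339, edgeR). It was not called with libraries that share a title number summed (adjusted p = 0.202). Without the filter on low counts the share was 0.00544% of 18389 genes, and DESeq2 called 5 genes. Epha2 did not check the labels: its level was 298 and 253 CPM (the depth-scaled count after TMM normalisation) in wild type 1 and 2 and 285 CPM in null-labelled 1, against 563, 653 and 578 CPM in wild type 3 and null-labelled 2 and 3. Its log2 fold change between the genotypes was 0.44 (edgeR adjusted p = 0.9996). Genotype directions therefore rest on the label alone. The corneal keratin gene Krt12 was between 13064 and 16025 CPM in the 6 libraries. Of 10 corneal epithelial markers 4 were called higher in the higher numbers and 0 lower (3 and 1 with upper quartile factors, and 0 and 0 without null-labelled 1). Letters in the titles tell apart the libraries that share a number, but what they stand for is not given. Nothing in the labels ties each library to an animal of its own, so the spread behind every p-value here could be technical.

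H60c was low in the 3 libraries with lower title numbers and high in the 3 with higher title numbers, in both genotypes. It was at 16.4 CPM in wild type 1, 14.4 CPM in wild type 2 and 22.2 CPM in null-labelled 1. It was at 287 CPM in wild type 3, 298 CPM in null-labelled 2 and 258 CPM in null-labelled 3. The lowest library of the higher set was 11.6 times the highest library of the lower set, so the 2 sets lay far apart with none between. The mean was 17.7 ± 4.01 CPM in the lower and 281 ± 20.7 CPM in the higher set (SD, n = 3 each), a 15.9-fold difference of the means. In the fit over all genes the log2 fold change, higher over lower title numbers, was 3.94 ± 0.15 (SE), or 15.3-fold.

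The depth behind these levels leaves little counting error. The counts were 339, 248 and 483 in wild type 1, wild type 2 and null-labelled 1. They were 4254, 6057 and 6907 in wild type 3 and null-labelled 2 and 3. The exact Poisson 95% interval of the level was 14.7 to 18.2 CPM in wild type 1, 12.7 to 16.4 CPM in wild type 2 and 20.2 to 24.2 CPM in null-labelled 1. In the higher set the intervals were 279 to 296 CPM in wild type 3, 291 to 306 CPM in null-labelled 2 and 252 to 264 CPM in null-labelled 3. These intervals cover counting error only. In bulk tissue, more cells that express H60c and more H60c RNA per cell cannot be told apart.

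**Figure D1:**
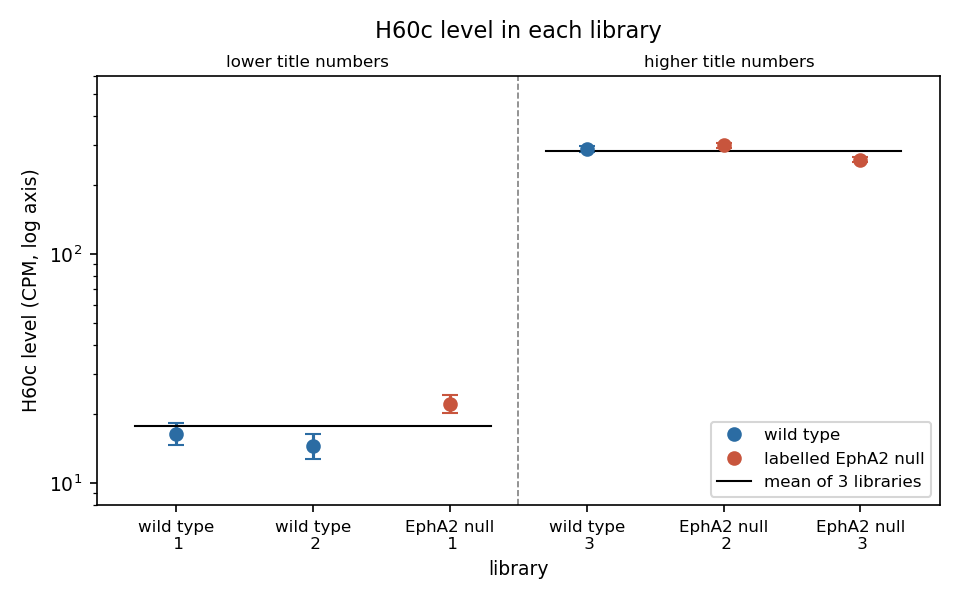
H60c level (CPM, log axis) in each of the 6 libraries, with the exact Poisson 95% interval as error bars and the mean of each set of 3 as a line. The 3 libraries with lower title numbers sit between 14.4 and 22.2 CPM and the 3 with higher numbers between 258 and 298 CPM, with both genotypes in each set.

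Within a set the libraries were close. Wild type 1 and 2, which share a title number, differed 1.13-fold, and null-labelled 2 and 3, which also share one, differed 1.16-fold. The SD of the log2 level was 0.32 among the 3 lower and 0.11 among the 3 higher libraries. The difference between the ranges was present in each genotype taken alone. Among wild type libraries it was 4.22 on the log2 scale (18.7-fold, 1 library against 2), and among the null-labelled libraries it was 3.65 (12.5-fold, 2 libraries against 1). These within-genotype values have no test.

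Relative to other genes, H60c stood in the middle of the expressed genes in the lower set and near the top in the higher set. Per kb of exon its level was 6.27 ± 1.42 CPM in the lower and 99.8 ± 7.36 CPM in the higher set (SD, n = 3 each). Ranked by this level among the 12847 tested genes, it stood between place 4869 and place 6439 in the lower libraries and between place 302 and place 347 in the higher ones. H2-K1, which encodes a classical MHC class I heavy chain and is used here as a yardstick for a surface protein of epithelial cells, had a mean level of 91.7 CPM per kb in the lower and 91.8 CPM per kb in the higher set. H60c was therefore at 0.0683 times the H2-K1 level per kb in the lower libraries and at 1.09 times that level in the higher ones. Krt12 RNA exceeded H60c 1154-fold per kb in the lower and 85.4-fold in the higher libraries.

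The size of the H60c difference can be set beside all tested genes. Counted with its sign, its log2 fold change was the second highest of 12847, behind Gm5478 at 5.52 ± 1.20 (SE). The level of Gm5478 was 81.8 and 85.5 CPM in wild type 3 and null-labelled 2 but 1.98 CPM in null-labelled 3, close to the 1.61 CPM of null-labelled 1. Gm5478 thus did not separate the title numbers as H60c did. In all, 522 genes were higher by more than 1 on the log2 scale, 31 by more than 2 and 5 by more than 3. Those lower by more than 1, 2 and 3 numbered 330, 61 and 14. Among these falls, Muc5ac (-4.95 ± 0.71, SE) and Muc5b (-4.29 ± 0.71, SE) were larger in size than the H60c difference. The libraries of the 2 ranges did not overlap for 59% of tested genes, with 30.1% higher and 28.8% lower in the higher numbers, so a lack of overlap was common.

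**Figure D2:**
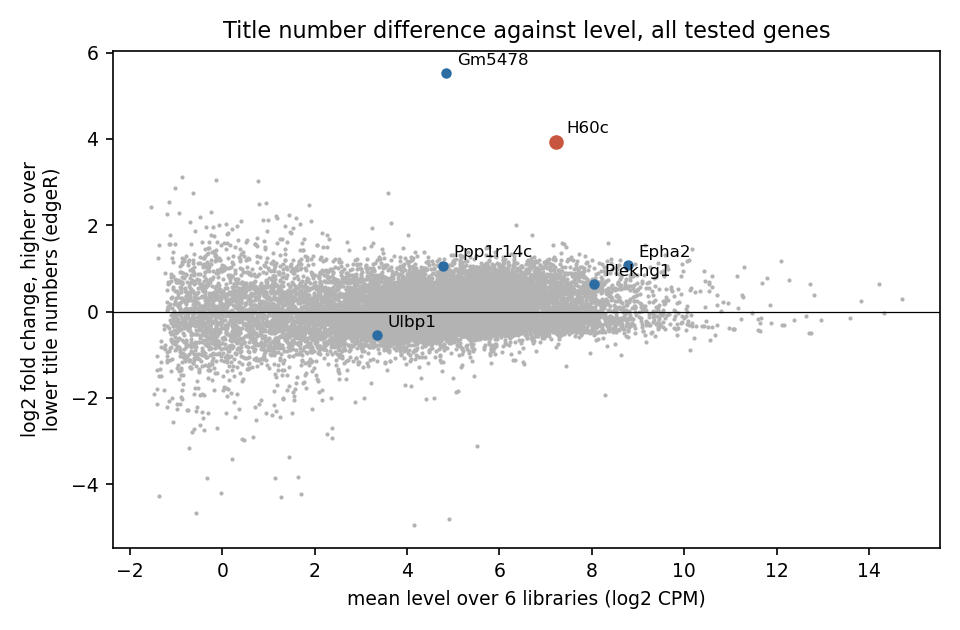
Log2 fold change of each tested gene between higher and lower title numbers (edgeR) against its mean level over the 6 libraries (log2 CPM), 1 point a gene. H60c lies at 3.94, apart from the cloud of genes at its level, while its neighbours Ppp1r14c and Plekhg1 and the ligand gene Ulbp1 lie within the cloud.

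Between the genotypes H60c showed no separation. The mean was 106 ± 157 CPM in wild type and 193 ± 149 CPM in the null-labelled libraries (SD, n = 3 each), a 1.82-fold ratio of means whose difference is smaller than either SD. The groups overlapped, as did those of all but 3.73% of tested genes (1.71% higher and 2.02% lower in the null-labelled libraries without overlap). Each genotype holds libraries of both title number ranges, 2 lower and 1 higher in wild type and 1 lower and 2 higher in EphA2 null. On the log2 scale the null-labelled libraries stood 0.86 ± 1.28 (SE) above wild type, and 0.21 ± 0.14 (SE) once the range of title numbers was a term of the fit. Leaving out wild type 3, the only wild type library of the higher set, moved it to 3.63. Within the lower numbers null-labelled 1 was 1.44 times the mean of wild type 1 and 2, and its counting interval did not overlap theirs. Within the higher numbers the mean of null-labelled 2 and 3 was 0.968 times wild type 3, with 1 of the 2 above it and 1 below. With 1 library on a side, these differences have no replicate check.

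H60c was the only NKG2D ligand gene with a high level in any library. Of the 9 ligand genes listed, 5 had a row in the table, and H60a, Raet1a, Raet1b and Raet1c were not analysed here. Raet1d, the gene of RAE-1 delta, had 0 counts in every library, and H60b had 1 count, in null-labelled 1. The floor used for a count of 0 was 3 counts, or 0.112 to 0.203 CPM depending on the library. The exact Poisson 95% interval of a count of 0 reaches 0.138 to 0.249 CPM, for counting error only.

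Raet1e, which encodes RAE-1 epsilon, was near the limit of detection and was seen in the higher set only. It had 0 counts in wild type 1, wild type 2 and null-labelled 1. It had 17, 9 and 29 counts in wild type 3 and null-labelled 2 and 3. All 55 counts therefore came from the libraries where H60c was high, in both genotypes. With 3 counts put in place of 0 for the pooled lower group, Raet1e was 17.7-fold higher in the pooled higher title numbers. This ratio makes no allowance for error in the 55 counts or for the spread among libraries. It did not pass the filter on low counts. Without that filter it was called higher (adjusted p = 2.17e-06 in edgeR and 6.52e-05 in DESeq2), where edgeR called 34.2% of 18389 genes, 17.6% as higher. Its exons overlap those of Raet1d by 363 bases and those of H60b by 133 bases on the same strand, so the assignment of reads within this cluster is uncertain. At 0.411 CPM per kb in the higher libraries it remained far below H60c.

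Ulbp1, which encodes MULT1, moved the other way and by little. It was at 10.1, 13.0 and 12.8 CPM in wild type 1, wild type 2 and null-labelled 1. It was at 8.37, 8.41 and 8.36 CPM in wild type 3 and null-labelled 2 and 3. The 2 sets did not overlap, and 28.8% of tested genes were likewise lower without overlap. The log2 fold change was -0.54 ± 0.15 (SE, n = 3 per set; adjusted p = 0.0189, edgeR), which is a fall, as for 20.1% of tested genes. It was no longer called when wild type 2 (adjusted p = 0.0571), wild type 3 (0.0584) or null-labelled 1 (0.213) was left out, by the same test in edgeR. Between the genotypes Ulbp1 had a log2 fold change of -0.09 (adjusted p = 0.9996, edgeR). Per kb of exon, H60c RNA was 3.52 times that of Ulbp1 in the lower libraries and 80.0 times in the higher ones. These ratios depend on the length used, that of all annotated exons, 2817 bases for H60c and 6726 for Ulbp1. Not scaled by length, the means of H60c and Ulbp1 were 17.7 and 12.0 CPM in the lower and 281 and 8.38 CPM in the higher set.

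**Figure D3:**
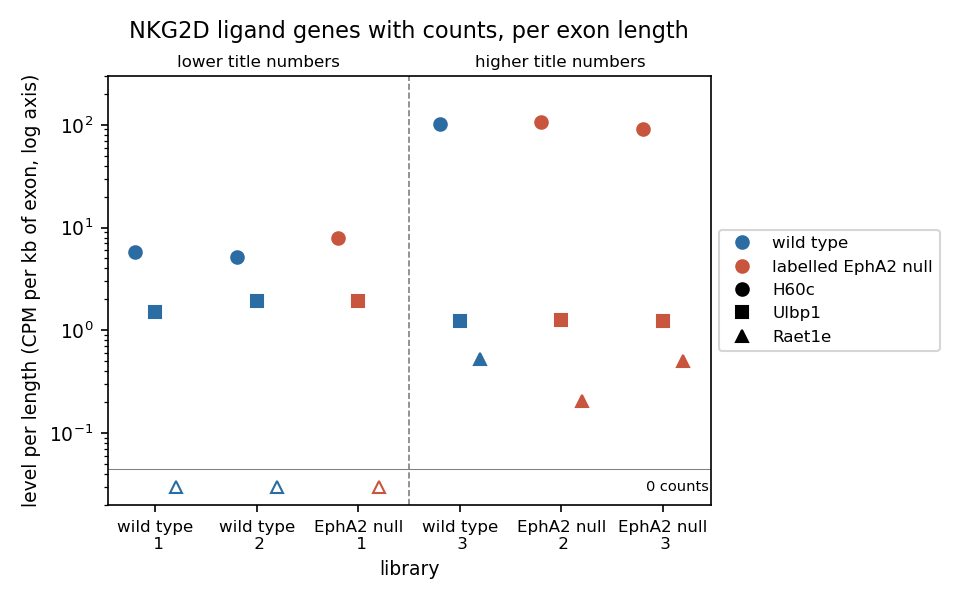
Levels per exon length (CPM per kb, log axis) of H60c (circles), Ulbp1 (squares) and Raet1e (triangles) in the 6 libraries, with open triangles at the bottom for 0 counts. H60c and Raet1e are higher in the 3 libraries on the right, from both genotypes, and Ulbp1 lies between 1.24 and 1.93 CPM per kb throughout.

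The receptor side of the pathway was nearly absent from these epithelial libraries. Klrk1, the gene of NKG2D itself, had 7 counts in wild type 1, 1 in null-labelled 2 and 0 in the other 4. Hcst, which encodes the adaptor DAP10, had 1 count in all. Tyrobp, which encodes the adaptor DAP12, had 14, 5 and 15 counts in wild type 1, wild type 2 and null-labelled 1, and 2, 5 and 3 in wild type 3 and null-labelled 2 and 3. These counts are near the limit of detection, and the part of cells with the receptor in the H60c difference was not tested. Of 14 natural killer cell markers 1 passed the filter, the integrin gene Itga2, and it was not called (log2 fold change -0.07). Itga2 was between 48.9 and 62.0 CPM, while Ncr1, Klrb1c, Klrd1 and Klrc1 had at most 3 counts in a library. Its level may therefore come from other cells, and it is no reading of natural killer cells here. Klra1, Klra4, Klra8 and Prf1 had 0 counts. Of the 10 T cell markers present, 2 passed the filter and 0 were called, where 44.7% of all tested genes were. Cd3e had at most 8 counts in a library.

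Some myeloid and conjunctival markers and 1 listed stromal marker moved with the title numbers in the opposite direction to H60c, while others did not. Among myeloid markers Itgam (log2 fold change 0.06), Itgax (0.19) and Cd68 (-0.09) were not called. Of 11 tested myeloid markers 8 were lower in the higher numbers and 0 higher, with a median log2 fold change of -2.10, where 20.1% of all tested genes were lower and their median was -0.01, and without null-labelled 1 1 of 11 was called with a median of -1.95, where 253 of all 13024 genes were lower. Ptprc, the pan-leukocyte gene, was at 1.40, 1.40 and 1.93 CPM in the lower set and at 0.270, 0.246 and 0.261 CPM in the higher set. The summed level of the 15 myeloid markers, which is mostly that of Itgam, was between 319 and 362 CPM in the lower and between 303 and 352 CPM in the higher set. Of 7 conjunctival markers 3 were lower and 0 higher, against the same 20.1% of all tested genes, with 1 lower without null-labelled 1, 7 without null-labelled 2 and 6 with upper quartile factors. The goblet cell mucin gene Muc5ac was at 38.5, 5.24 and 58.8 CPM in wild type 1, wild type 2 and null-labelled 1, and at 0.675, 2.21 and 1.68 CPM in wild type 3 and null-labelled 2 and 3. The summed level of these 7 was between 4611 and 5986 CPM in the lower and between 3116 and 5700 CPM in the higher set. Their part in the H60c difference was not tested. Epidermal markers were of interest because H60c is known from skin. Of 3 tested, 0 were called, where 44.7% of all tested genes were, so 3 genes can show little. Krt10 was between 5.18 and 5.83 CPM in all 6 libraries. Krt2, Lor and Flg had at most 4 counts in a library and were not tested. The summed level of the 6 was 10.9 to 12.8 CPM in the lower and 11.1 to 12.9 CPM in the higher set. The part of skin cells in the H60c difference was not tested. Of 7 stromal keratocyte markers 1 was tested, the aldehyde dehydrogenase gene Aldh1a1, and it was lower in the higher numbers. It was at 247, 252 and 250 CPM in wild type 1, wild type 2 and null-labelled 1, and at 120, 108 and 73.3 CPM in wild type 3 and null-labelled 2 and 3 (log2 fold change -1.26 ± 0.16, SE; adjusted p = 0.00182, edgeR), and its call held with each library left out. The summed level of the 7, nearly all of it Aldh1a1, was between 247 and 252 CPM in the lower and between 73.6 and 121 CPM in the higher set, while the defining stromal genes Kera and Lum had 0 counts in every library. Untested Dcn had 6, 2 and 3 counts in wild type 1, wild type 2 and null-labelled 1, and 18, 5 and 6 in wild type 3 and null-labelled 2 and 3. Col1a1 had 0, 0 and 1 against 3, 3 and 2 in the same order. Col1a2 and Col3a1 had at most 3 counts in a library and were not more frequent in the higher set. Without the filter on low counts 1 of 5 was called higher and 1 lower, where 34.2% of 18389 genes were called. The part of Aldh1a1 in the H60c difference was not tested.

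Of the genes that neighbour H60c on chromosome 10, the 2 that could be tested shared its direction but not its size. Within 500 kb of its start the annotation holds 13 other genes, of which 5 were counted and 2 passed the filter. Ppp1r14c (3366057 to 3464975, plus strand, 98.3 kb away), which encodes an inhibitor of protein phosphatase 1, was at 20.0, 17.3 and 16.4 CPM in wild type 1, wild type 2 and null-labelled 1. It was at 34.8, 39.4 and 37.6 CPM in wild type 3 and null-labelled 2 and 3. The sets did not overlap, where 30.1% of tested genes were higher without overlap. The log2 fold change of Ppp1r14c was 1.07 ± 0.12 (SE; adjusted p = 0.00178, edgeR). Plekhg1 (3740364 to 3967303, plus strand, 473 kb away) had 0.64 ± 0.11 (SE; adjusted p = 0.00376, edgeR). Both rose in the higher title numbers, as 24.6% of tested genes did, against 3.94 for H60c. Iyd, the gene of iodotyrosine deiminase, had 7, 6 and 13 counts in wild type 1, wild type 2 and null-labelled 1 and 1, 8 and 1 in wild type 3 and null-labelled 2 and 3, fewer on the whole in the higher set, and was not tested, and 9230019H11Rik and B020014A21Rik had 0.

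The genes of GPI anchor assembly, the machinery that H60c protein needs at the membrane, did not move as 1 group. Of 27 tested members 5 rose and 11 fell in the higher title numbers, with a median log2 fold change of -0.24. This is 59.3% called, against 44.7% of all tested genes. The 5 that rose were Pigo (0.98 ± 0.13, adjusted p = 0.00203), Pigt (1.01 ± 0.17, adjusted p = 0.00311), Gpaa1 (0.67, adjusted p = 0.00602), Pgap3 (0.76, adjusted p = 0.00722) and Pigs (0.77, adjusted p = 0.00737), all in edgeR. Pigt, Gpaa1 and Pigs encode subunits of the transamidase that attaches the anchor to a protein. Of its other subunit genes, Pigu fell (-0.31, adjusted p = 0.0237, edgeR) and Pigk was not called (-0.20, adjusted p = 0.102, edgeR). Pigo acts late in building the anchor, as do Pigf (-0.42, adjusted p = 0.0315) and Pigg (-0.35, adjusted p = 0.0192), which fell in edgeR. Neither step thus moved in 1 direction. Without null-labelled 1, 2 of the 27 were called higher and 0 lower, where 8.47% of all genes were called, and without wild type 3 it was 5 and 5. Sheddases and other genes of ligand release gave 3 higher and 1 lower of 9, a share of 44.4%, with a median of 0.01, with 0 called without null-labelled 1, 1 higher and 1 lower without null-labelled 3, and 1 higher and 2 lower with upper quartile factors. Mmp14, a membrane matrix metalloproteinase gene, rose by 0.76 (adjusted p = 0.00734, edgeR) and Adam17, a sheddase gene, fell by 0.39 on the log2 scale (adjusted p = 0.00805, edgeR). Both calls were lost without null-labelled 1 (adjusted p = 0.114 and 0.146).

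In MHC class I presentation 2 of 19 genes rose and 6 fell, or 42.1% called, with a median of -0.16. Without wild type 3, 2 rose and 0 fell with a median of 0.05, without wild type 2, 0 rose and 3 fell, and without null-labelled 1, 0 rose and 2 fell, and with upper quartile factors 1 rose and 8 fell. Psme2, a proteasome activator gene, had -0.47 (adjusted p = 0.00628, edgeR; 0.0698 without wild type 3). The called share of the class I list was near the 44.7% of all tested genes. Among the other ligands of killer and gamma delta T cells 4 of 14 rose and 2 fell (42.9%, median -0.07). Nectin2, which encodes a ligand of DNAM-1 (0.70, adjusted p = 0.00215), and Plxnb2, a semaphorin receptor gene (1.12, adjusted p = 0.00183), rose, and Clec2d, a gene for a ligand of inhibitory receptors of natural killer cells (-1.10, adjusted p = 0.00174), fell, all in edgeR. Without null-labelled 1, 2 of the 14 were higher and 1 lower, and with upper quartile factors 4 were higher and 4 lower. Of 11 epithelial cytokine genes 1 rose and 3 fell (36.4%, median -0.21). The alarmin gene Il33 fell by 1.14 on the log2 scale (adjusted p = 0.00188, edgeR), and 1 of the 11 was called, as lower, without null-labelled 1.

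Of the 4 tested genes of NKG2D signalling 3 rose, namely Plcg2 (0.87, adjusted p = 0.00335), Syk (0.54, adjusted p = 0.0118) and Grb2 (0.52, adjusted p = 0.0153), all in edgeR. Of all tested genes 24.6% were higher and 44.7% called. These signalling genes are expressed in many cell types. Without null-labelled 1 the 3 calls were lost, and without wild type 2 those of Syk (adjusted p = 0.0519) and Grb2 (adjusted p = 0.0639).

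Genes linked to the control of NKG2D ligands gave 7 higher and 4 lower of 26, or 42.3% called, near the 44.7% of all tested genes, with a median of 0.07. March9, which encodes a ubiquitin ligase of the family that removes surface MULT1 (1.26, adjusted p = 0.00232), Stat3 (0.91, adjusted p = 0.00257) and Rela, an NF-kB subunit gene (0.96, adjusted p = 0.00260), rose, and Tmem173, the gene of STING, fell (-1.47, adjusted p = 0.00273, edgeR for all). Without null-labelled 1, 4 rose and 0 fell, and Tmem173 was not called (adjusted p = 0.0606). Upper quartile factors gave 6 higher and 9 lower. In squamous differentiation 7 of 27 rose and 2 fell (33.3% against 44.7% of all tested genes, median 0.19), and 4 rose and 0 fell without null-labelled 1. It was 4 higher and 1 lower without wild type 3, and 6 higher and 5 lower with upper quartile factors. Notch1, a receptor gene of epithelial differentiation, had 1.59 ± 0.10 (SE; adjusted p = 6.03e-04), and the transcription factor genes Klf4 and Grhl3 had 1.46 ± 0.19 (adjusted p = 0.00197) and 1.18 ± 0.15 (adjusted p = 0.00182), all in edgeR. The highest log2 fold change among the tested members of the 9 lists other than H60c was the 1.59 of Notch1. Between the genotypes 0 members of the 9 lists were called by edgeR, and 1, Krt16, had an unadjusted p under 0.05 (log2 fold change 1.69, adjusted p = 0.9996).

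**Figure D4:**
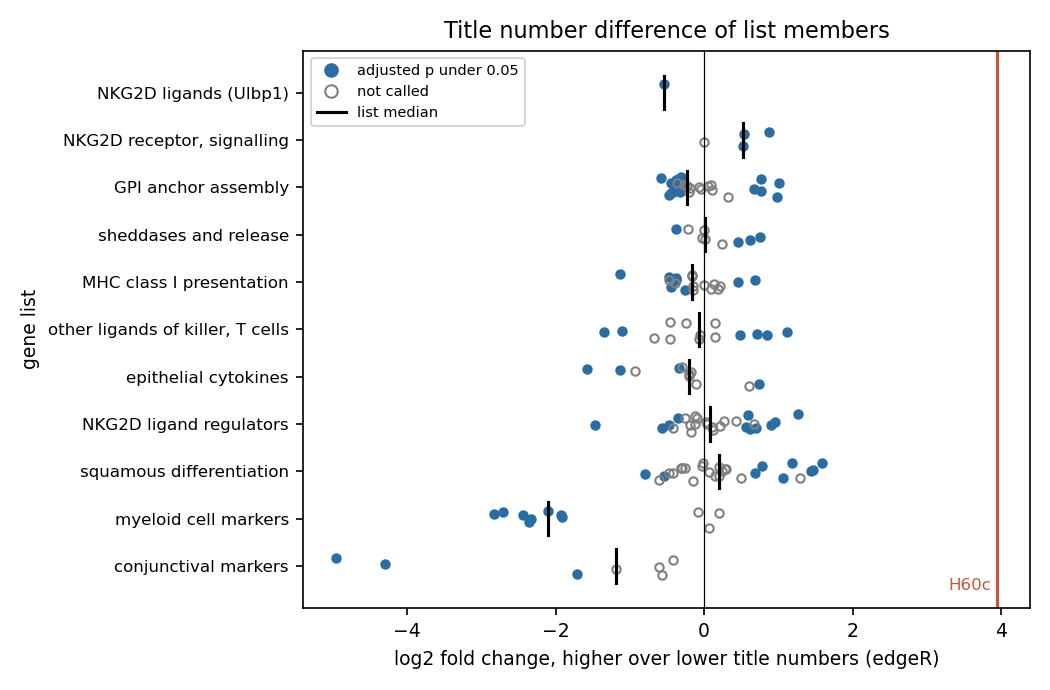
Log2 fold change of list members between higher and lower title numbers (edgeR), 1 point a gene, filled where called, with the list median as a black bar and H60c as a red line. List members lie on both sides of 0, the myeloid and conjunctival markers mostly below it, and H60c at 3.94 lies above all of them.

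The genes whose pattern was most like that of H60c were low in level. Likeness was the Euclidean distance between centred log2 CPM profiles over the 6 libraries, with Pearson's r as a description only, since all genes share the same libraries and their separation. The 10 nearest genes had distances between 2.11 and 2.60 and r between 0.867 and 0.978. They were Spata20, Tas1r2 (a taste receptor gene), Tesc, E030030I06Rik, Egr2 (an immediate early transcription factor gene), Myh7b (a myosin gene), Abcg4 (a transporter gene), Aoc3 (an amine oxidase gene), Iqcn and Lmx1b (a homeobox gene). Spata20, the nearest, was at 0.627, 0.350 and 0.505 CPM in wild type 1, wild type 2 and null-labelled 1, and at 2.63, 3.84 and 2.39 CPM in wild type 3 and null-labelled 2 and 3. In the lower libraries the means of the 10 ran from 0.109 CPM (E030030I06Rik) to 1.14 CPM (Iqcn), so several were near the limit of detection there. Such genes could pass the filter on low counts through the higher set alone, so the likeness is a description only. The mean of each of the 10 in the higher libraries was at most 4.62 CPM, against 281 CPM for H60c. Their log2 fold changes were between 1.94 and 3.13, with SE between 0.30 (Lmx1b) and 0.80 (Abcg4). Single libraries moved some of these: without wild type 3 Tesc went from 2.53 to 1.47, Egr2 from 2.12 to 1.31 and Abcg4 from 3.03 to 4.75, and without null-labelled 1 Abcg4 went to 1.83. E030030I06Rik lies on chromosome 10, 9.30 kb before Raet1e. By Pearson's r alone 10 other genes were nearest, with r between 0.993 and 0.999 but log2 fold changes between 0.21 and 1.24. Csrnp1 had the highest of these fold changes. In all, 1807 of 12846 other genes had r above 0.9 with H60c, so a high r is common here.

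**Figure D5:**
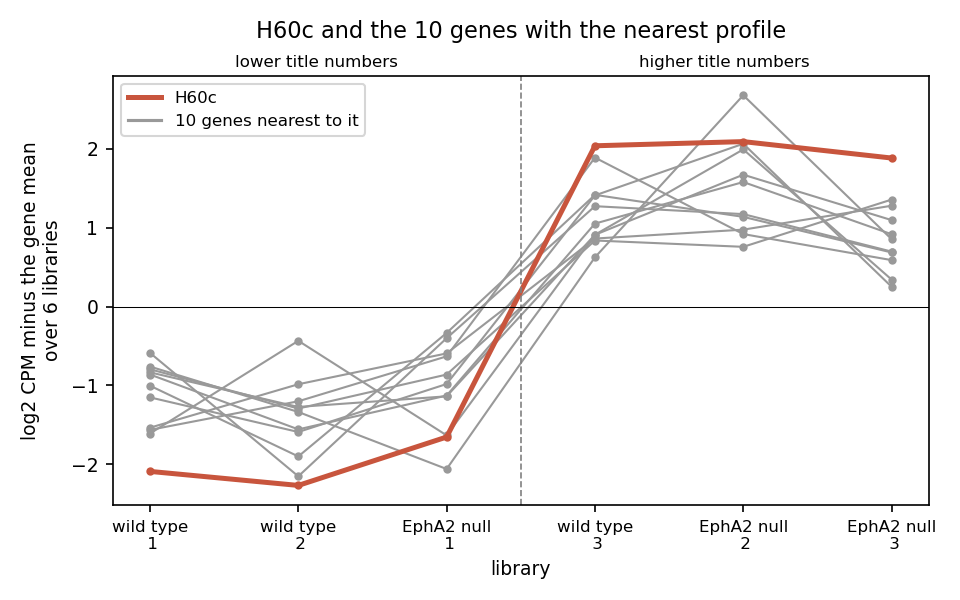
Centred log2 CPM of H60c (red) and of the 10 genes nearest to it (grey) in the 6 libraries, with lines joining the points of a gene. All 11 profiles are below their mean in the 3 libraries with lower title numbers and above it in the 3 with higher numbers, and H60c spans the widest range between the 2 sets of means.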

How the data were processed

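Total RNA of isolated corneal epithelial sheets (miRNeasy kit) was sequenced on an Illumina HiSeq in 6 samples, per the design text. The deposited values are raw counts per Ensembl gene, per the file headers. How reads were aligned and counted, with which strand setting, build and annotation, is not given in the sources used here. The columns carry the sample titles, and 0 columns of other samples were present. GENCODE M21 (GRCm38) held 24942 of 25006 identifiers. It was not checked against the authors' annotation.

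Counts were TMM-normalised, filtered with filterByExpr (12847 genes) and fitted with edgeR 4.0.16 (glmQLFit, glmQLFTest, two-sided) in R 4.3.3, with genotype alone, and with title number range and genotype for the range difference. SE is the log2 fold change divided by the square root of F. Levels are CPM, divided by exon length for comparisons between genes. That length joins all annotated exons of a gene, whichever transcripts are expressed, so ratios between genes depend on it. Null-labelled libraries are those labelled EphA2 null. DESeq2 1.42.0, limma voom 3.58.1, other factors, other filters, sums per title number and each library left out were alternatives. Pairs of libraries differed beyond sampling noise (lowest ratio of chi-square to degrees of freedom 10.6). The gene, its lists and the range comparison were chosen with earlier results of these data known. Named genes are the ligand and receptor genes, neighbours within 500 kb, up to 4 called members of each of 9 lists per comparison or otherwise the 2 smallest p, and the 10 nearest profiles. Not all of the last kinds are printed. Genes named outside this rule were chosen after their values were seen.

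On simulated counts for 12735 genes, edgeR recovered 58% of genes changed 1.5-fold and 86% at 2-fold between genotypes, and 30% and 84% between ranges. The simulation for genotype held no separation by title number.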

Additional observations from a re-analysis of the deposited data

How the results depend on the processing

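The H60c difference between title numbers kept its direction under every alternative run, between 3.63 (without wild type 3) and 4.22 (without null-labelled 1) on the log2 scale when single libraries were left out, and 3.81 with upper quartile factors. Its genotype difference ran from 0.36 to 3.63 when single libraries were left out and was -0.03 with libraries sharing a title number summed, 1.59 in limma voom and 0.21 with the range as a term. Genes called between genotypes numbered 1 in the fit reported, 5 in DESeq2 and 0 with libraries sharing a title number summed, which leaves 2 per group (53 at an unadjusted p under 0.05 there). Genes called between ranges numbered between 1103 and 5803 when single libraries were left out. Of the 45 genes named for that comparison by the rule given above, 0 changed direction. The calls of 28 of these 45 were lost when at least 1 library was left out and those of Timp3 and Gpld1 under other settings. Genes named outside that rule, B2m, Ptprc and Aldh1a1 among them, are not counted here. B2m also lost its call with RLE factors (adjusted p = 0.0555, edgeR) and in DESeq2 (adjusted p = 0.104). Between genotypes some small values changed sign and none of these passed the threshold. With libraries sharing a title number summed they were Mmp14 (-0.024), Syk (-0.00275), Plekhg1 (-0.155) and Ulbp1 (0.078), and with the range as a term Mmp14 (-0.0955), Syk (-0.023), Plekhg1 (-0.13), Ppp1r14c (-0.018) and Ulbp1 (0.083). With single libraries left out, Syk ran from -0.070 to 0.34, Plekhg1 from -0.107 to 0.33 and Ulbp1 from -0.33 to 0.093, with the sign changed without wild type 2 (Plekhg1, Ulbp1), null-labelled 2 (Ulbp1, 0.013) and null-labelled 3 (Syk, Plekhg1 at -0.0929, Ulbp1 at 0.016). The cause was not tested. With Pearson's r, 0 of the 10 nearest genes were shared, and with a prior count of 0.5 in place of 2, 8 were. Scaling by raw library size gave H60c means of 18.4 and 269 CPM. No paired analysis was possible because the labels give the genotypes no shared replicate number. Depth does not limit H60c, but it limits Raet1e and the receptor genes, which had few or 0 counts.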

Other observations

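A genotype effect that differs between the title number ranges was fitted for 12847 genes as edgeR's interaction term, with a median log2 value of 0.02. Null-labelled 1 was the only null-labelled library with a lower number, and wild type 3 the only wild type library with a higher one. The term therefore could not decide whether genotype effects differ between the ranges. That model was added once the data had been seen. B2m, which encodes the light chain of MHC class I molecules, had a mean level of 127 CPM per kb in the lower and 60.7 CPM per kb in the higher libraries, a log2 fold change of -1.13 (adjusted p = 0.0485, edgeR). B2m was at 171, 73.2 and 83.0 CPM in wild type 1, wild type 2 and null-labelled 1, and at 33.1, 56.3 and 67.2 CPM in wild type 3 and null-labelled 2 and 3, so the sets did not overlap. Of all tested genes 28.8% were lower without overlap and 20.1% were called lower, so both are common here. The B2m call was lost without wild type 3 (log2 fold change -0.44, adjusted p = 0.406), wild type 2 (adjusted p = 0.0515) or null-labelled 2 (adjusted p = 0.0586) in edgeR, with RLE factors (adjusted p = 0.0555) and in DESeq2 (adjusted p = 0.104). It kept its direction in these fits, with -0.73 without wild type 1 and -1.89 without null-labelled 1. H60c was at 0.0494 times the B2m level per kb in the lower libraries and at 1.64 times in the higher ones.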
